A study of Ischnura elegans with 24 samples.

Results

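Of the 34095 contigs measured in whole-body RNA of Ischnura elegans, the blue-tailed damselfly, 100 form the group described here: contigs with a higher level in larvae reared at 24 °C than at 20 °C in each of 6 populations, and with like levels in southern and northern larvae at 20 °C. A contig is a transcript sequence assembled from reads without a genome. The members were chosen by their measured levels, on the scale log2(CPM + 1), where CPM is the read count of a contig scaled to the size of its library, with library sizes adjusted by edgeR's TMM factors. A contig had to be counted in all 24 libraries at a mean of at least 5 CPM, which 12096 contigs were. Its response, the mean level at 24 °C minus the mean level at 20 °C, had to lie above 0 in every population. Its southern minus northern difference at 20 °C had to lie between -0.3 and 0.3. The 100 contigs with the largest smallest response were kept, where the smallest response is the lowest of the 6 population values.

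The libraries came from male larvae in their final larval stage, reared singly from hatching in the laboratory on brine shrimp nauplii. The 4 groups were northern larvae at 24 °C, northern larvae at 20 °C, southern larvae at 24 °C and southern larvae at 20 °C. Each group held 6 libraries, with 2 pools (a and b) from each of 3 populations, and each pool joined the RNA of 3 larvae, so the spread between single larvae was not measured. Library totals ran from 12061616 to 17157615 counts. In whole-body pools more cells of a type and more RNA per cell cannot be told apart.

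Insects take their body temperature from the water or air around them, so warming changes the pace of growth, of metabolism and of development together. A change in a trait with the rearing environment is called plasticity. The series title sets genetic compensation, in which evolved differences offset a plastic change, against genetic assimilation, in which a plastic change becomes fixed. The rule took contigs with like levels in both latitudes at 20 °C. None of the 34095 contig identifiers matched the RefSeq gene table of the species, and the files pair contigs with no gene names or sequences. The members are therefore given by identifier, without roles, and no sequences are printed.

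A response above 0 in all 6 populations was found for 741 of the 12096 contigs that passed the level filters, or 6.13%, and a response below 0 in all 6 for 561, or 4.64%. The limit on the difference at 20 °C took out 131 of the 741 and left 610. The smallest response was 0.615 in the first member and had a median of 0.155 over the 100. The last contig inside the list had a smallest response of 0.116, a mean response of 0.264 and a mean of 24.3 CPM. The first contig outside it had a smallest response of 0.1152, a mean response of 0.183 and a mean of 168 CPM. The list therefore ends in a run of closely spaced values, not at a gap.

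Most responses of the members were modest. The mean response over the 6 populations had a median of 0.342 and ran from 0.187 to 1.345, on the log2(CPM + 1) scale, which understates changes of contigs with few counts. As folds on that scale the median was 1.27 and the range 1.14 to 2.54. A mean response of at least 1 was reached by 2 members, 21 lay between 0.5 and 1, 44 between 0.3 and 0.5, and 33 under 0.3. The same median over all contigs past the level filters was 0.0127. These sizes describe the choice and are not a test of it.

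**Figure D1:**
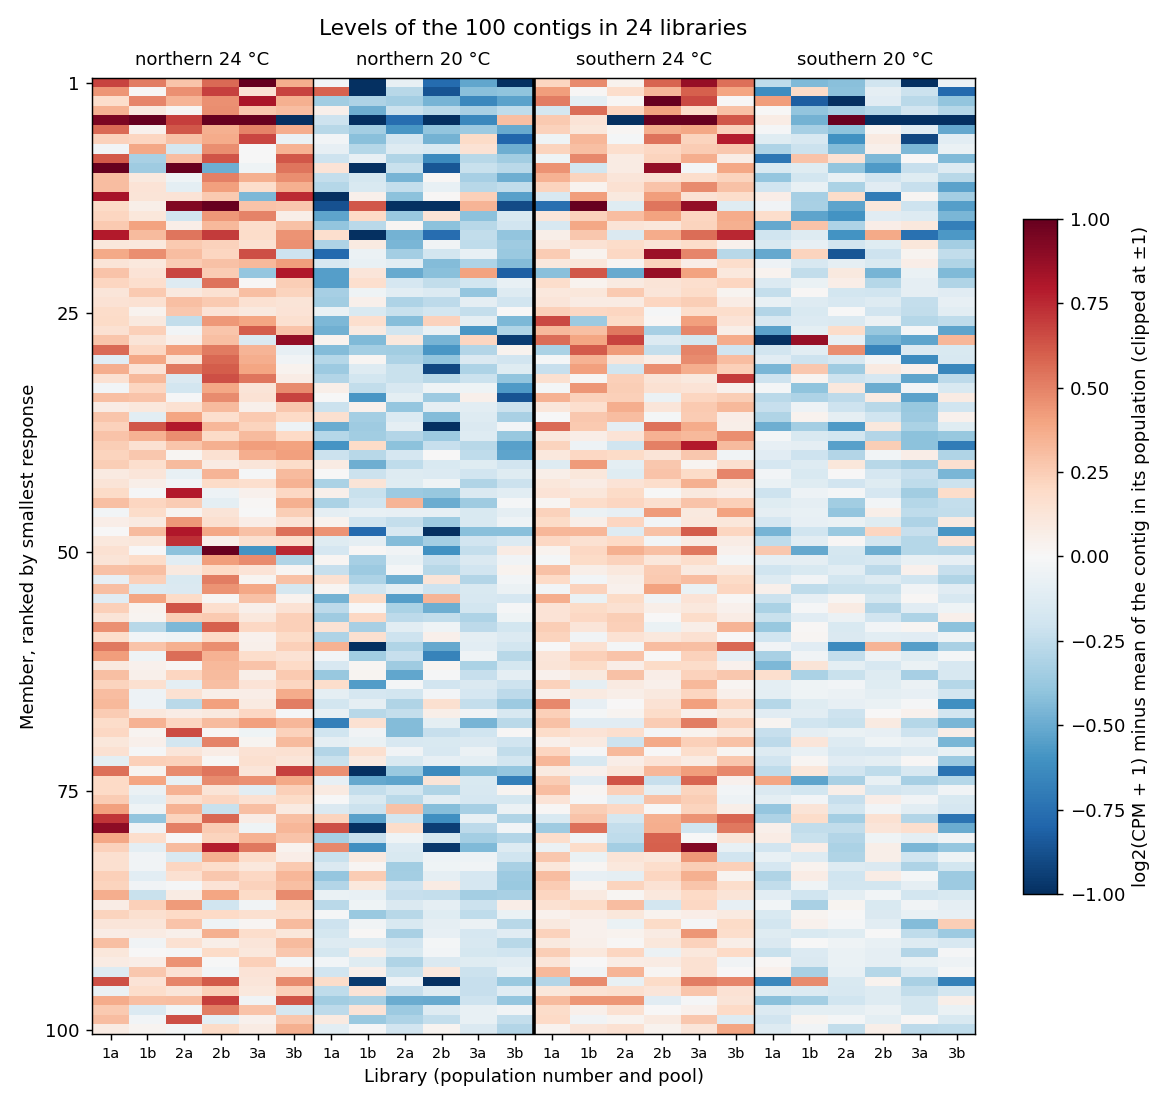
Levels of the 100 contigs (rows, ranked by smallest response) in the 24 libraries (columns, by latitude and temperature, with population number and pool letter). Colour is log2(CPM + 1) minus the mean of the contig over the 4 libraries of its population, clipped at ±1. The 24 °C columns are mostly red and the 20 °C columns mostly blue, as the choice requires. Single pools of the other colour lay on the other side of that mean, with or without overlap between the temperatures.

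The members differed widely in read abundance. Their mean level had a median of 31.7 CPM and ran from 5.08 to 18534 CPM. CPM values are not divided by contig length, which the files do not give, so they show shares of reads and not the order of transcript levels. There were 21 members at 5 to 10 CPM, 27 at 10 to 30 CPM, 27 at 30 to 100 CPM, 21 at 100 to 1000 CPM and 4 at 1000 CPM or more. Of all contigs past the level filters, the shares in these bands were 27.4%, 37.8%, 24.6%, 9.34% and 0.802%. The median response of the members was 0.332, 0.4, 0.325, 0.326 and 0.376 from the lowest band to the highest.

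Together the members took 3.51% ± 0.144 of raw counts in warmed northern larvae (24 °C) and 2.93% ± 0.0795 in those kept cooler (20 °C) (SD, n = 6 each). The southern shares were 3.94% ± 0.127 (24 °C) and 3.12% ± 0.193 (20 °C) (SD, n = 6 each). Without the most abundant member, northern shares were 1.65% ± 0.12 (24 °C) and 1.33% ± 0.0949 (20 °C), and southern shares were 1.71% ± 0.126 (24 °C) and 1.43% ± 0.105 (20 °C). These shares are of raw totals, with no scaling. The direction of the summed shares follows from the choice of members.

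That most abundant member was TRINITY_DN121518_c13_g1_i1. Its lowest, median and highest library had 16758, 21306 and 23913 CPM in northern larvae at 24 °C, against 14537, 15374 and 17079 CPM at 20 °C. In southern larvae the values were 20044, 21803 and 24505 CPM at 24 °C, against 12200, 15830 and 18621 CPM at 20 °C. The southern temperatures did not overlap, while in northern larvae 24 °C library 2a lay below the highest 20 °C library. Its average log2 fold change was 0.46 ± 0.07 (SE, edgeR adjusted p = 0.00267), with 0.44 ± 0.10 in northern and 0.49 ± 0.10 in southern larvae.

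The next by counts was TRINITY_DN173750_c9_g1_i1. In northern larvae its lowest, median and highest library had 2487, 4327 and 5450 CPM at 24 °C, against 1166, 2631 and 3446 CPM at 20 °C. In southern larvae it had 1985, 3245 and 4303 CPM at 24 °C, against 1552, 2435 and 3375 CPM at 20 °C. The temperatures overlapped in both latitudes, and the average log2 fold change of 0.59 ± 0.16 did not pass the threshold (SE, edgeR adjusted p = 0.0728).

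The response of each population is next described, with every member above 0 by the rule. The median response of the members was 0.304, 0.437 and 0.374 in northern populations 1, 2 and 3. In southern populations 1, 2 and 3 it was 0.258, 0.263 and 0.386. The median over all contigs past the level filters lay between -0.0079 and 0.037 in the 6 populations. Southern population 1 set the smallest response of 27 members, southern population 2 that of 21, northern population 1 and southern population 3 that of 17 each, northern population 2 that of 12 and northern population 3 that of 6. The largest response was that of northern population 2 in 30 members and that of southern population 1 in 4. Within a member the largest and smallest response differed by a median of 0.437, with a range from 0.103 to 2.48.

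**Figure D2:**
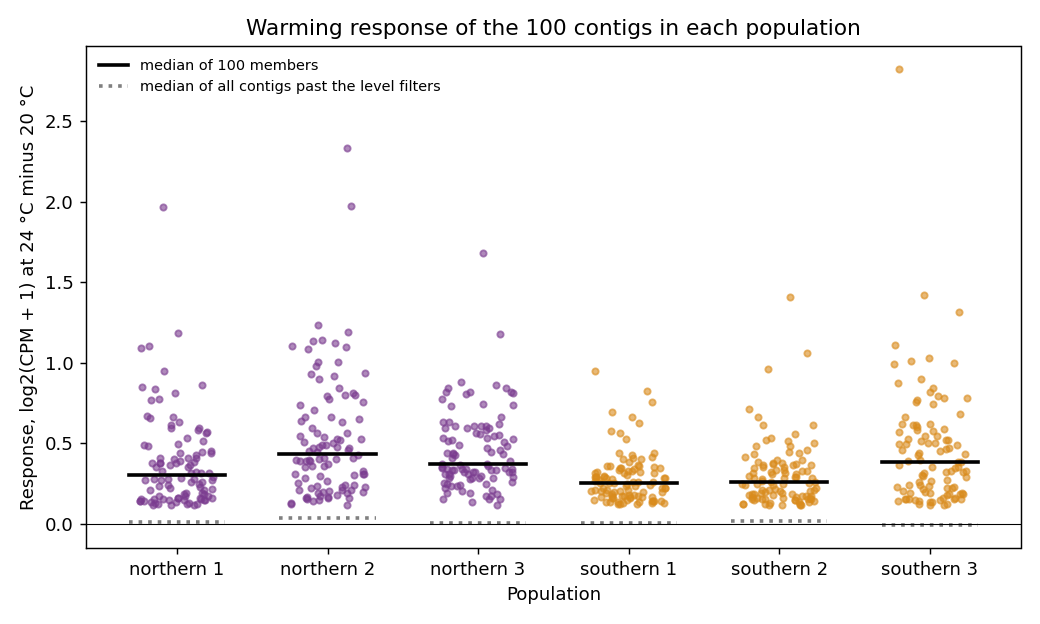
Response of each of the 100 contigs (points) in each population, as log2(CPM + 1) at 24 °C minus 20 °C. Black lines are medians of the members, from 0.258 in southern population 1 to 0.437 in northern population 2, and dotted lines are medians of all contigs past the level filters, near 0.

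The first member by smallest response was TRINITY_DN69823_c5_g2_i1, with responses of 1.19, 0.847 and 1.68 in northern populations 1 to 3 and 0.693, 0.615 and 1.42 in southern populations 1 to 3. In northern larvae its lowest, median and highest library had 684, 908 and 1338 CPM at 24 °C, against 240, 352 and 676 CPM at 20 °C. In southern larvae it had 612, 767 and 973 CPM at 24 °C, against 162, 488 and 567 CPM at 20 °C. Every 24 °C library stood above every 20 °C library of the same latitude. Its average log2 fold change was 1.04 ± 0.18 (SE, edgeR adjusted p = 0.00624).

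TRINITY_DN5863_c4_g8_i3 came second, with a smallest response of 0.43 in southern population 1. Its lowest, median and highest northern library had 24.8, 49.1 and 73.4 CPM at 24 °C, against 11.4, 31.1 and 37.4 CPM at 20 °C. In southern larvae it had 37, 46.9 and 65.9 CPM at 24 °C, against 23.5, 29.6 and 42.1 CPM at 20 °C. The temperatures overlapped in both latitudes. Its average log2 fold change of 0.70 ± 0.17 passed the threshold narrowly (SE, edgeR adjusted p = 0.042). It no longer passed in 25 of 36 alternative settings, with adjusted p from 0.0021 to 0.213.

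Pools within a population did not enter the rule, which used their means. Both 24 °C pools stood above both 20 °C pools in 414 of the 600 pairings of a member with a population, or 69%, against 21.1% of such pairings over all contigs past the level filters. Means that are apart favour pools that are apart, so this follows in part from the choice. Such a separation was found in all 6 populations for 13 members, in 5 for 29, in 4 for 27, in 3 for 24, in 2 for 4 and in 1 for 3. Of the 12096 contigs past the level filters, 26 had it in all 6 populations. It was found in 4 or more populations for 69 members, against 5.61% of those contigs. By population it held for 58, 73 and 81 members in northern populations 1 to 3 and for 59, 62 and 81 in southern populations 1 to 3. Over all contigs past the level filters the shares were 17.8%, 25.7% and 24.2% in the northern populations. In the southern populations they were 17.6%, 18.5% and 23%.

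Over whole latitudes the 24 °C libraries all stood above the 20 °C libraries for 18 members in northern larvae, against 1.1% of contigs past the level filters, and for 17 in southern larvae, against 0.694%. Both held for 5 members, against 0.0579%. These libraries are the ones the rule used, so nothing is read from the counts. A single member, TRINITY_DN176168_c0_g1_i1, had every 24 °C library of either latitude above every 20 °C library, and it was the only such contig among the 12096 (0.00827%). It is named here because of these values. Its lowest, median and highest library had 63.9, 70.9 and 81.7 CPM at 24 °C in northern larvae, against 40.8, 46.9 and 59.1 CPM at 20 °C. In southern larvae it had 59.8, 72.8 and 85.9 CPM at 24 °C, against 46.6, 50.6 and 56.4 CPM at 20 °C. The gap between the temperatures was narrow, from 59.1 CPM in northern 20 °C library 3a to 59.8 CPM in southern 24 °C library 1b.

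In the model across all contigs, 57 of the 100 members rose with warming on average over both latitudes at an adjusted p under 0.05 (edgeR), where 1.14% of the 31287 tested contigs and 1.89% of those past the level filters did. The rule used the same contrast, so nothing is read from this count. The 57 had a median response of 0.369 and a median of 43.5 CPM, and the mean absolute difference between their pools had a median of 0.193. The 43 that did not pass had a median response of 0.295, a median of 19.4 CPM and a median pool difference of 0.305. With 1 population left out the count was between 14 and 47. It was 0 with both pools of a population and temperature summed before the fit. All 100 had an unadjusted p under 0.05 in that fit (edgeR), but the rule chose contigs by these population responses, so nothing is read from this.

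In northern larvae alone 14 members passed the threshold for a rise, against 0.345% of tested contigs and 0.678% of those past the level filters (edgeR adjusted p under 0.05). In southern larvae 2 did, against 0.0863% and 0.0331%. The rule used the responses of both latitudes, so nothing is read from these counts either. The member that passed the threshold in both was TRINITY_DN176168_c0_g1_i1, with 0.61 ± 0.09 in northern and 0.49 ± 0.09 in southern larvae (log2, SE, edgeR adjusted p = 0.00235 and 0.0381). The southern calls ended under many settings: the count was 0 without population in the model, 0 without contigs at 0 in 10 or more libraries, and 0 to 3 with 1 library or population left out. The northern count was 2 to 19 in the same way.

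Responses were then read in libraries that the choice had not used. The rule was applied to 5 populations and the response of the 100 contigs it gave was read in the population left out. The share above 0 was 76, 90 and 91 of 100 in northern populations 1 to 3, where 52.2%, 54.6% and 51% of all contigs past the level filters were above 0. In southern populations 1 to 3 it was 65, 77 and 73 of 100, where 51.3%, 54.2% and 49% were. The median response there was 0.167, 0.352 and 0.339 in the northern populations and 0.0763, 0.123 and 0.182 in the southern ones. In every population the median of the chosen contigs lay above that of all contigs, which ran from -0.0069 to 0.035. In the 5 populations used for the choice the same contigs had medians of 0.389, 0.354 and 0.324 with northern populations 1 to 3 left out, and of 0.478, 0.463 and 0.368 with southern populations 1 to 3 left out. The left-out median was thus lower in northern population 1 and in the 3 southern populations, about equal in northern population 2 and slightly higher in northern population 3.

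The lists so chosen shared 56, 73 and 78 contigs with the members when northern populations 1 to 3 were left out, and 36, 48 and 55 when southern populations 1 to 3 were. Southern population 1, which set the smallest response most often, changed the list most when left out. Contigs are not independent of each other, so no p is given for these shares.

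**Figure D3:**
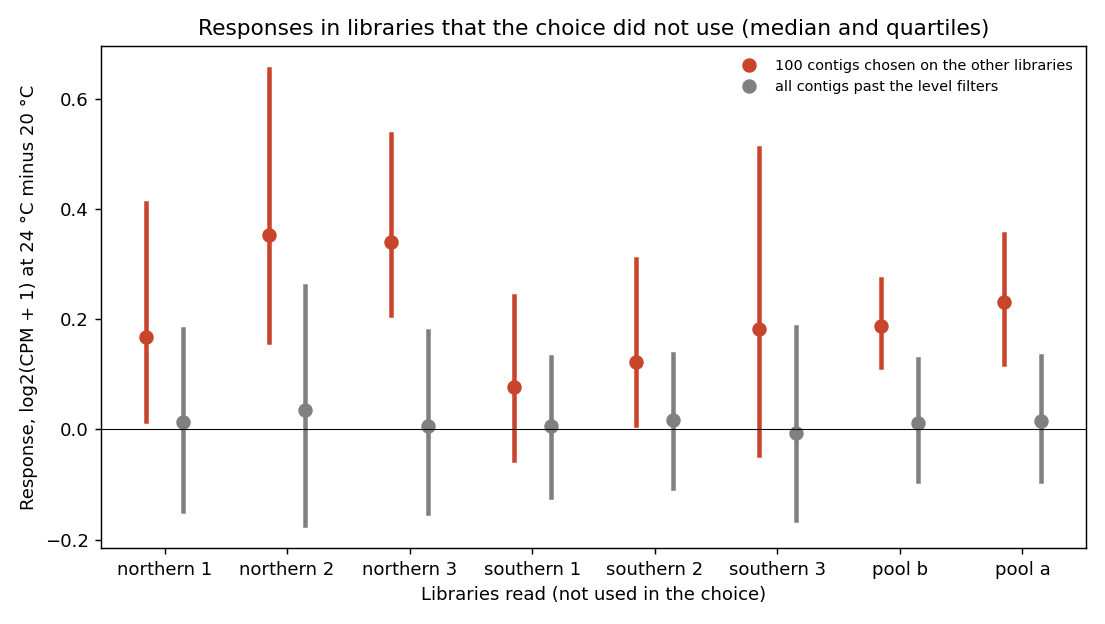
Median (points) and quartiles (bars) of the response in libraries that the choice did not use, for 100 contigs chosen by the rule on the other libraries (red, left) and for all contigs past the level filters (grey, right). The first 6 positions are populations left out in turn, and the last 2 are pools b and a, with the choice made on the other pool. The red medians run from 0.0763 to 0.352 and the grey ones lie near 0.

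The same was done with the pools. Of 100 contigs chosen on the 12 libraries of pool a, 93 had a mean response above 0 in pool b, with a median of 0.187, where 52.6% of all contigs were above 0. Of 100 chosen on pool b, 92 were above 0 in pool a, with a median of 0.231, where 53.5% of all contigs were. A response above 0 in all 6 populations of the pool not used was found for 19 contigs chosen on pool a, against 3.36% of all contigs, and for 30 chosen on pool b, against 5.76%. These lists held 29 and 21 of the members. Both pools of a population come from the same population, so pool b is no independent sample of populations.

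The mean response over the 6 populations was above 0 in all 100 members under each of 4 scalings, while the responses in single populations depended on the scaling. Northern TMM factors averaged 0.888 ± 0.0702 (24 °C) and 1.03 ± 0.0374 (20 °C), and southern ones 1.02 ± 0.0774 (24 °C) and 1.08 ± 0.0705 (20 °C) (SD, n = 6 each). With library totals alone, a setting added after the data were seen, the median contig had a response of -0.181 in northern and -0.0699 in southern larvae. On that scale 45 of the 100 members stayed above 0 in all 6 populations, while all 100 lay above the median contig in every population. Their TMM responses were at least 0.116, where the median contig had -0.0079 to 0.037 in the 6 populations. A scaling moves all contigs of a library by nearly the same amount. The place of the 100 above the median contig therefore follows from the choice and is no test of it. The mean responses above 0 follow in part from the choice as well. All 100 stayed above 0 in all 6 with RLE size factors and with upper-quartile scaling. The responses are therefore changes relative to most other contigs. Why the factors moved with temperature was not tested.

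Southern and northern responses of the members were compared next. The mean southern response had a median of 0.324 and the mean northern response one of 0.38. The southern minus northern difference had a median of -0.0969 over the members, against -0.00428 over all contigs past the level filters. The response was larger in northern larvae for 71 members, against 51% of those contigs. Over those contigs the fitted warming effect had a median size of 0.138 (log2) in northern and 0.098 in southern larvae. The rule used the responses of the members, so nothing is read from the 71. In the model the difference in response passed the threshold for none of the members. With edgeR it did so for 0.0256% of tested contigs and 0.00827% of those past the level filters. At an unadjusted p under 0.05 there were 3 members, or 3% against 5.17% of tested contigs. DESeq2 also called 0 members, with 15 contigs called in all. These counts are near the shares over all contigs, so nothing is read from them. A rule that asks for a large smallest response also favours contigs with like responses, which can lower such counts. The fitted difference plus or minus 2 SE stayed within 1 on the log2 scale for 92 members and within 0.5 for 55. That fit took the pools of a population as separate libraries, though latitude varies between populations. Spread of the response between populations was not separated from spread between pools, so these bounds may be too narrow.

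**Figure D4:**
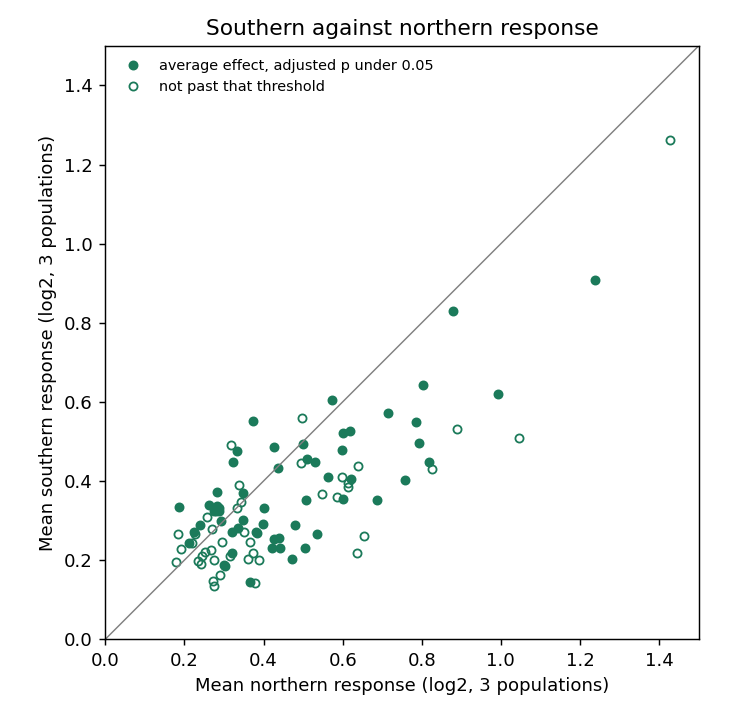
Mean southern response against mean northern response of each of the 100 contigs, both in log2(CPM + 1) over 3 populations. Filled points rose on average at an adjusted p under 0.05 (57 members), open points did not pass, and the line marks equal responses. The points below the line are the 71 members with the larger northern response.

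TRINITY_DN5603_c0_g1_i1 had the smallest p for a larger northern response. In southern larvae its lowest, median and highest library had 102, 109 and 113 CPM at 24 °C, against 88.8, 99.9 and 104 CPM at 20 °C. In northern larvae it had 96.5, 100 and 114 CPM at 24 °C, against 67.6, 82.2 and 91.6 CPM at 20 °C. The northern temperatures did not overlap, while southern 24 °C library 1a lay below the highest southern 20 °C library. The difference of its responses was -0.22 ± 0.09 (SE, edgeR adjusted p = 0.902).

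TRINITY_DN13049_c0_g1_i1 followed, with a difference of -0.405 ± 0.17 (SE, edgeR adjusted p = 0.921). Its lowest, median and highest southern library had 10.7, 13.6 and 14.7 CPM at 24 °C, against 7.45, 9.9 and 12.2 CPM at 20 °C. In northern larvae it had 14, 21.2 and 25.9 CPM at 24 °C, against 10.5, 11.1 and 12.3 CPM at 20 °C. The temperatures overlapped in southern larvae and did not in northern larvae. It rose on average by 0.68 ± 0.09 (log2, SE, edgeR adjusted p = 0.000488).

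On the side of larger southern responses, TRINITY_DN281518_c0_g1_i1 had a difference of 0.13 ± 0.12 (SE, edgeR adjusted p = 0.982). It had 31, 35.4 and 39.1 CPM at 24 °C in southern larvae, against 23.3, 25 and 29.2 CPM at 20 °C, as lowest, median and highest library. In northern larvae it had 34, 36.7 and 42.9 CPM at 24 °C, against 26, 29.3 and 33.6 CPM at 20 °C. The temperatures did not overlap in either latitude. This contig was the other member past the threshold in southern larvae, with 0.46 ± 0.08 (log2, SE, edgeR adjusted p = 0.0381). TRINITY_DN224140_c1_g1_i1 had a difference of 0.15 ± 0.14 (SE, edgeR adjusted p = 0.982), with southern means of 33.1 ± 5.16 CPM (24 °C) and 26 ± 3.16 CPM (20 °C), and northern means of 35.6 ± 4.16 CPM (24 °C) and 31 ± 1.78 CPM (20 °C) (SD, n = 6 each).

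The levels of the latitudes at 24 °C were tested with both pools of a population summed, 3 populations against 3. The rule bounded only the difference at 20 °C, where the southern minus northern difference of the members had a median of -0.00271 and ran from -0.262 to 0.296. At 24 °C its median was -0.0881 and it ran from -0.594 to 0.346, with 74 members lower and 26 higher in southern larvae. The same median over all contigs past the level filters was 0.0131. The difference at 24 °C is the difference at 20 °C plus the difference in response, and the rule used the values of both. Nothing is therefore read from the 74 and 26. The difference at 24 °C lay outside -0.3 to 0.3 for 13 members, against 22.6% of contigs past the level filters. None of the members passed the threshold at 24 °C (edgeR, which called 0.495% of tested contigs and 0.885% of those past the level filters). At an unadjusted p under 0.05 there were 10 members, or 10% against 14.3% of tested contigs and 19.4% of those past the level filters. DESeq2 called 1 member, with 1449 contigs called in all. With edgeR no member passed, which is near the shares over all contigs, so nothing is read from it. The limit on the difference at 20 °C favours contigs with a small difference at 24 °C. The lower share of members at an unadjusted p under 0.05 therefore follows in part from the choice.

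That member was TRINITY_DN13049_c0_g1_i1, the lowest in p also with edgeR. Its southern minus northern difference at 24 °C was -0.65 ± 0.14 (SE, edgeR adjusted p = 0.1). Southern libraries had 10.7 to 14.7 CPM and northern libraries 14 to 25.9 CPM, so they overlapped through northern 24 °C library 1b alone, and without that library the adjusted p was 0.0493. TRINITY_DN174928_c0_g1_i1 averaged 129 ± 7.38 CPM in the southern group at 24 °C and 158 ± 12 CPM in the northern one (SD, n = 6 each), with no overlap between the libraries, and a difference of -0.28 ± 0.09 (SE, edgeR adjusted p = 0.203).

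Higher in southern larvae at 24 °C was TRINITY_DN121480_c1_g3_i1, with 110 ± 13 CPM for the southern group and 88.7 ± 25.3 CPM for the northern one (SD, n = 6 each), a difference of 0.33 ± 0.11 (SE, edgeR adjusted p = 0.25). Northern 24 °C libraries 1b and 2a, at 58.1 and 58.4 CPM, lay far below the other 4, at 97.2 to 122 CPM. TRINITY_DN7769_c2_g6_i2 averaged 14 ± 4.65 CPM for the southern group and 11.4 ± 2.97 CPM for the northern one, a difference of 0.35 ± 0.18 (SE, edgeR adjusted p = 0.447), with overlapping libraries.

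**Figure D5:**
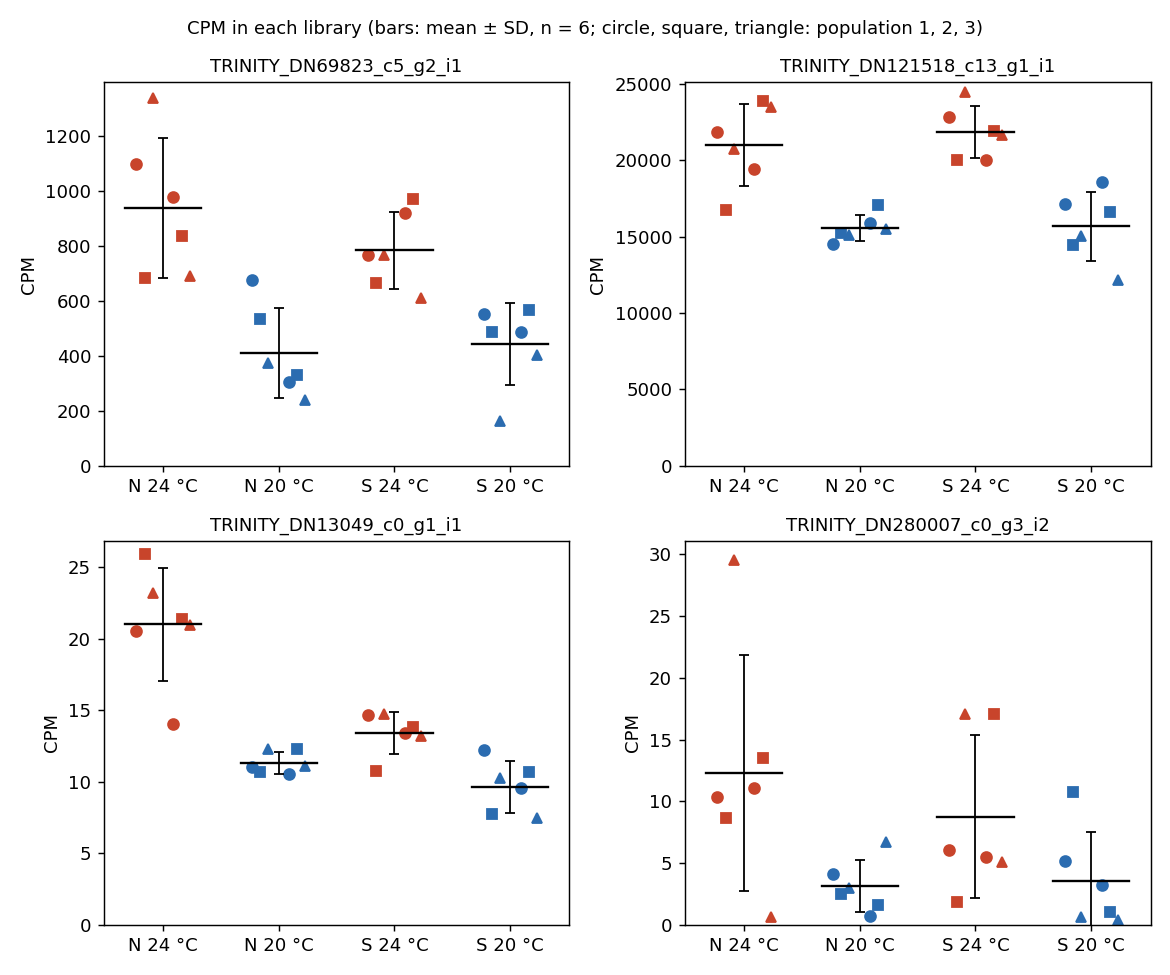
CPM of 4 members in each library, for northern (N) and southern (S) larvae at 24 °C (red) and 20 °C (blue). Circles, squares and triangles are populations 1, 2 and 3, pool a stands left and pool b right in each group, and bars are the mean ± SD of 6 libraries. All 4 members have 24 °C means above the 20 °C means of the same latitude. The pools of TRINITY_DN280007_c0_g3_i2 range from 0.627 to 29.6 CPM within northern larvae at 24 °C.

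Levels were also compared among the populations of a latitude. Among northern populations the highest and lowest population mean differed by a median of 0.238 (log2), against 0.209 over all contigs past the level filters, and among southern populations by 0.187, against 0.175. None of the members passed the threshold among northern populations (edgeR, which called 0.694% of tested contigs and 0.372% of those past the level filters) or among southern populations (0.109% and 0.0165%). At an unadjusted p under 0.05 there were 22 members among northern and 9 among southern populations, against 12.8% and 7.13% of tested contigs and 13.6% and 6.52% of those past the level filters. DESeq2 called 2 members among northern populations, with 537 contigs called in all, and 0 among southern populations, with 106.

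TRINITY_DN130616_c0_g1_i1 had the smallest p among northern populations (edgeR adjusted p = 0.112). Population 1 was lowest, at 22.4 and 17.6 CPM at 24 °C and 19.2 and 13.7 CPM at 20 °C. Population 2 had 44 and 25.8 CPM at 24 °C and 22.2 and 23.4 CPM at 20 °C, and population 3 had 24.6 and 28.9 CPM at 24 °C and 22.6 and 20 CPM at 20 °C. Among southern populations it was TRINITY_DN124453_c0_g3_i2 (edgeR adjusted p = 0.329). Southern population 3 was highest, at 18.7 and 25.2 CPM at 24 °C and 16 and 17.3 CPM at 20 °C, while the other 8 southern libraries had 4.2 to 13.2 CPM.

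The spread between pools was close to that of other contigs. The mean absolute difference between pools a and b over the 12 combinations of population and temperature had a median of 0.244 over the members, against 0.23 over all contigs past the level filters. It ran from 0.1 to 1.29. The mean response exceeded it in 82 members, and in size in 11.7% of all contigs past the level filters, a contrast that follows from choosing members by their responses. The median correlation between a pair of members over the 12 differences was 0.031, against 0.002 over all pairs past the level filters. A correlation over 0.8 was found for 0.525% of the 4950 member pairs and for 0.425% of all pairs. These correlations are descriptions over 12 differences, each between pools a and b, and all pairs were read in the same libraries.

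TRINITY_DN73838_c0_g2_i1 had the lowest pool difference. Its lowest, median and highest library had 114, 116 and 138 CPM in northern larvae at 24 °C, against 82.1, 92 and 108 CPM at 20 °C. In southern larvae it had 105, 111 and 122 CPM at 24 °C, against 84.8, 94.1 and 97.3 CPM at 20 °C. No libraries overlapped within a latitude, and it rose on average by 0.33 ± 0.05 (log2, SE, edgeR adjusted p = 0.00256).

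The highest pool difference was that of TRINITY_DN280007_c0_g3_i2, which also had the largest mean response, 1.345. It had 10.3 and 11 CPM in the pools of northern population 1 at 24 °C, 8.65 and 13.5 CPM in population 2, and 29.6 and 0.627 CPM in population 3. At 20 °C the same populations had 4.13 and 0.741, 2.52 and 1.58, and 3 and 6.7 CPM. In southern populations 1 to 3 it had 6.04 and 5.48, 1.85 and 17.1, and 17.1 and 5.06 CPM at 24 °C, against 5.18 and 3.24, 10.7 and 1.02, and 0.586 and 0.379 CPM at 20 °C. In northern population 3 and southern population 2 the pools of the temperatures overlapped. Its average log2 fold change of 1.81 ± 0.59 did not pass the threshold (SE, edgeR adjusted p = 0.129).

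The members came from 99 Trinity genes, a Trinity gene being a set of contigs that the assembler took as isoforms of a locus. For 11 members the table held another contig of the same Trinity gene, against 23.9% of contigs past the level filters. There were 10 such contigs outside the list, of which 7 passed the level filters. All 7 had a mean response above 0, with a median of 0.218 and a range from 0.0485 to 1.12, and 4 were above 0 in all 6 populations. Of all contigs past the level filters 53.8% had a mean response above 0. Reads shared between isoforms can be counted for either, and the counting rule for such reads was not stated in the labels.

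The Trinity gene with 2 members gave TRINITY_DN121658_c1_g1_i6 and TRINITY_DN121658_c1_g1_i3. The first had northern means of 110 ± 14.6 CPM (24 °C) and 88.7 ± 8.97 CPM (20 °C), and southern means of 101 ± 5.05 CPM (24 °C) and 88.4 ± 5.26 CPM (20 °C) (SD, n = 6 each). The second had northern means of 109 ± 13.9 CPM (24 °C) and 88.3 ± 11.1 CPM (20 °C), and southern means of 99.6 ± 7 CPM (24 °C) and 87.4 ± 6.39 CPM (20 °C) (SD, n = 6 each). Both rose by 0.25 ± 0.05 on average (log2, SE, edgeR adjusted p = 0.0146 and 0.0127). Each no longer passed the threshold in 5 of 36 alternative settings. Whether the counting divided shared reads between them was not tested.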

How the data were processed

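RNA of whole larvae was measured in 24 pooled libraries. The authors deposited raw read counts per Trinity contig. Subread 1.5.1, featureCounts, Trimmomatic 0.36 and FastQC 0.11.5 are named, with no roles, per the submitters' processing notes. The build, strand setting and assignment of shared reads are not given in those notes or the labels. The 100 members came from the rule on log2(CPM + 1) given above. The members, lists and rules for naming contigs were chosen with earlier results of these data known. Tests ran on all contigs with edgeR 4.0.16 (R 4.3.3): filterByExpr over the 4 groups (minimum count 10, minimum total 15; 31287 contigs), TMM factors, and robust quasi-likelihood F tests on 24 libraries, with an intercept per population and a temperature effect per latitude. Latitude at 24 °C was tested on population sums. P-values were adjusted by Benjamini-Hochberg over all contigs, with a threshold of 0.05. The SE is the absolute log2 fold change divided by the square root of F.

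Contigs named are the 2 members with the largest smallest response, the 2 with most counts, the 2 with the smallest p in each direction for each latitude comparison, 1 for the populations of each latitude, those with the lowest and highest pool difference, and a Trinity gene with several members. Pairing across temperatures comes from the population in the labels. Deviations from group means at both temperatures correlated at -0.037 (northern population 2) to 0.263 by population. Counts of the pools of a population and temperature gave chi-square values of 11.3 to 58.3 per degree of freedom, so none agreed within sampling noise. The labels give no separate rearing runs, so p-values cover only the spread among these pools and populations. The scripts were tested on simulated data. DESeq2 1.42.0 was an alternative, as were other scalings, filters and left-out libraries.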

Additional observations from a re-analysis of the deposited data

Results flagged for a closer look

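Among 76 sets of 6 libraries examined (the named members and the summed shares in each group), 4 held a library far from the other 5, where about 1 set in 20 does so by chance. TRINITY_DN121480_c1_g3_i1 had 55.9 CPM in northern 20 °C library 1b, against 70.2 to 77.9 CPM in the others. TRINITY_DN7769_c2_g6_i2 had 22.9 CPM in southern 24 °C library 2a, against 9.46 to 14.3 CPM. TRINITY_DN124453_c0_g3_i2 had 57.2 CPM in northern 24 °C library 2a, against 5.52 to 21.7 CPM. TRINITY_DN73838_c0_g2_i1 had 84.8 CPM in southern 20 °C library 3a, against 93.5 to 97.3 CPM.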

How the results depend on the processing

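The count of members past the threshold for an average rise was 57, and with 1 library or population left out it ran from 14 to 58. Leaving out northern population 2 gave 24, northern 3 gave 17, and southern 1, 2 and 3 gave 22, 21 and 14. It was 35 without northern 20 °C library 2a, 33 without southern 20 °C library 3a, and 37 without northern 20 °C library 3a, northern 20 °C library 3b or southern 24 °C library 3b. The northern count of 14 ran from 2 to 19, with 2 and 3 without northern populations 2 and 3. The southern count of 2 ran from 0 to 3, the difference between latitudes from 0 to 0, latitude at 24 °C from 0 to 1 (1 without northern 24 °C library 1b), northern populations from 0 to 3 (3 without northern 20 °C library 1a, 1 without northern 24 °C library 2b) and southern populations from 0 to 0. With both pools summed the average, northern and southern counts were 0, 0 and 0. DESeq2 gave 73 members for the average effect, where it called 1115 contigs in either direction. It gave 44 northern and 7 southern members, where it called 807 and 57 contigs. At 24 °C it gave 1 member, of 1449 contigs called, and among northern populations 2, of 537. The rule used the warming responses, so nothing is read from the counts for warming with edgeR or DESeq2. For left-out libraries and populations the calls over all contigs are not given here. A change in those counts of members can therefore not be told from a change in calls over all contigs. The southern edgeR count was 0 once contigs at 0 in 10 or more libraries were dropped. With 12 libraries at 24 °C taken as independent, 3 members passed the latitude test. Pools of a population are not separate replicates of a latitude, so nothing is read from that count. Without the replicate block for population the average, northern, southern and difference counts were 50, 13, 0 and 0. The cause of these shifts was not tested.

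Membership depended on the rule. Of the 100 members, 48 were kept with a mean of at least 1 CPM, 60 with no limit at 20 °C and 44 with library totals alone. With 1 library or population left out 36 to 91 were kept, with 36, 48, 55 and 56 without southern populations 1, 2 and 3 and northern population 1, and 60 without northern 20 °C library 1b. Of 596 values of named contigs under alternatives, 0 reversed, 38 no longer passed the threshold and 11 newly passed it. The latitude test at 24 °C called 155 contigs of all tested, 727 with a filter over population sums (added after the data were seen) and 1449 with DESeq2. Members past the threshold for an average rise numbered 9 of 21 at 5 to 10 CPM, 12 of 27 at 10 to 30, 21 of 27 at 30 to 100, 14 of 21 at 100 to 1000 and 1 of 4 at 1000 CPM or more. How far depth limits the calls was not tested.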
